A study of Mus musculus with 4 samples.

Results

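The coagulation and fibrinolysis genes F3, Thbd, Procr, Tfpi, Vwf, Plat, Plau and Plaur, whose products start, hold back or dissolve the blood clot, were followed across the cell types of the mouse lung. They were found in the count matrices by their gene symbols, and all 8 were present once among the 32285 genes measured. The data were 4 scRNA-Seq libraries, made in droplets from the lungs of wild-type male C57BL/6 mice, either young (2 to 3 months) or aged (22 months), and either naive and nonventilated or mechanically ventilated for 3 hours. The mice were raised on a food-restricted diet, gradually lowered to 70% of free feeding. The labels give it for mice without naming a group, and the study's methods describe it for the aged mice. The ventilated mice breathed pure oxygen at a tidal volume of 20 mL/kg, 150 breaths per minute and no end expiratory pressure, under ketamine, medetomidine and buprenorphine and with vascular lines in place, so that ventilation, anesthesia, oxygen and surgery cannot be told apart. The study capped the tidal volume at a fixed maximum for heavier mice, and its aged mice were in general heavier. The volume per body weight can therefore have differed between the ages. Each library came from the left lobes of 3 pooled mice, whose cells had been flushed of blood, dissociated with enzymes, frozen and thawed. With 1 library per group there was no replicate and no test was run. Every interval below is a 95% interval for counting error only and does not cover differences between mice.

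Coagulation begins when tissue factor (F3), a membrane protein that blood does not normally meet, binds factor VII and leads to the formation of thrombin. Endothelial cells oppose it at 3 points: tissue factor pathway inhibitor (Tfpi) blocks the tissue factor complex, thrombomodulin (Thbd) binds thrombin and turns it toward activating protein C, and the endothelial protein C receptor (Procr) presents protein C to that complex. Von Willebrand factor (Vwf) is stored by endothelial cells, tethers platelets and carries factor VIII. Clots are dissolved by plasmin, which tissue-type plasminogen activator (Plat) and urokinase (Plau) cut from plasminogen. The urokinase receptor (Plaur) holds urokinase at the cell surface. In injured lungs, fibrin in the air spaces is a long known feature, and the epithelium is a known site of tissue factor.

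In the GRCm38 annotation (the mm10 build), the genes lay on 6 chromosomes. Thbd (ENSMUSG00000074743, chr2:148404466-148408188, minus strand), Procr (ENSMUSG00000027611, chr2:155751117-155755471, plus strand) and Tfpi (ENSMUSG00000027082, chr2:84432855-84476775, minus strand) shared chromosome 2. F3 (ENSMUSG00000028128) was at chr3:121723537-121735048, Vwf (ENSMUSG00000001930) at chr6:125546774-125686679, Plaur (ENSMUSG00000046223) at chr7:24462484-24475968, Plat (ENSMUSG00000031538) at chr8:22757727-22782844 and Plau (ENSMUSG00000021822) at chr14:20836660-20843385, each on the plus strand. None of the 8 overlapped another annotated gene.

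The RefSeq promoter table (GRCm38.p6) held 4 of the 8 genes, namely F3, Procr, Plaur and Tfpi (the last with 2 start sites). The 250 bases before the start site are shown for the first 3, since each held a match to the AP-1 motif, which Fos and Jun proteins bind, and all 3 genes had cell types at least 2-fold higher in the ventilated libraries at both ages. The sequences read 5′ to 3′ on the gene's own strand, which is the plus strand, at chr3:121723287-121723536 for F3, chr2:155750967-155751216 for Procr and chr7:24462233-24462482 for Plaur. Capitals mark matches on either strand to 1 of 6 motifs: AP-1 (TGANTCA), CRE (TGACGTCA), NF-kB (GGGA, any base, TTTCC), KLF (CACCC), EGR (GCGNGGGCG) and the antioxidant response element (TGACNNNGC).
F3: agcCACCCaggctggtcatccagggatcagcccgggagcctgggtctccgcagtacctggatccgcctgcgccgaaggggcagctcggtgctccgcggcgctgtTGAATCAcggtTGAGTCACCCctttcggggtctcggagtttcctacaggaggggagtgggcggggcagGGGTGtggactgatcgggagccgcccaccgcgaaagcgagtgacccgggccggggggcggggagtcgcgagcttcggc
Procr: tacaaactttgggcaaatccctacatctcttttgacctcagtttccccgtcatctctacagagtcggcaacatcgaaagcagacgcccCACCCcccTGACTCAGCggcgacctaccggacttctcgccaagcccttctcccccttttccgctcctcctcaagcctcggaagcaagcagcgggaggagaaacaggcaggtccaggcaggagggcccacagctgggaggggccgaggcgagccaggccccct
Plaur: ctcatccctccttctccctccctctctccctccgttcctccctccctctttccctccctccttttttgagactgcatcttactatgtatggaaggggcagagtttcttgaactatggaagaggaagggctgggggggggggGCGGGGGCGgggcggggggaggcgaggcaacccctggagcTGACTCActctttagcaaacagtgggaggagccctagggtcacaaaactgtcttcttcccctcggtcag
The F3 promoter held 2 AP-1 matches, TGAATCA at position -146 and TGAGTCA at position -135 from the start site, and the latter ran into a KLF match at -130. Procr held TGACTCA at -154, which overlapped an antioxidant response element match (TGACTCAGC), and Plaur held TGACTCA at -69 and an EGR match (GCGGGGGCG) at -109. The AP-1 motif was found in 7.81% of all 32851 promoters in the table, the EGR motif in 5.55%, the antioxidant response element in 12.4% and KLF in 57.5%. No CRE match (1.79% of all promoters) and no NF-kB match (0.411%) lay in the windows of the 4 genes, and the 2 Tfpi windows held KLF matches only. A match is a stretch of letters in the genome and was not tested for binding. Sites that differ from these motifs by a letter were not sought, so a motif without a match can still have a variant site.

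The 4 libraries held 15428 barcodes with 40655452 to 45218176 unique molecular identifiers (UMIs, one per captured transcript) each. Barcodes were kept that had 200 to 5000 detected genes, no more than 10% of UMIs from mitochondrial genes and a UMI total below the 93rd percentile over all barcodes. This left 10160 cells (2171 to 2976 per library) with medians of 7871 to 9104 UMIs. Any pair of libraries shared 0 to 7 barcodes. These cells formed 34 clusters, which were named from marker genes into 23 cell types, and the 8 genes took no part in the clustering. The 17 types with at least 20 cells in every library were compared. Levels are given as UMIs per 1000000 UMIs (CPM) of the summed cells of a type in a library. General capillary, aerocyte, alveolar fibroblast and monocyte cells from ventilated and nonventilated libraries fell largely into separate clusters of the same name, so a comparison within these types was also one between clusters. Neutrophils formed 1 cluster here but divided the same way at a finer resolution of 2, into clusters with 8, 198, 9 and 242 cells and with 114, 24, 50 and 14 cells (young without and with ventilation, then aged without and with ventilation). General capillary cluster 0, for example, held 559 and 488 cells of the young and aged nonventilated libraries and 8 and 64 of the ventilated ones, whereas cluster 1 held 8 and 13 against 633 and 294. Adventitial fibroblasts (137, 51, 113 and 36 cells, ordered as for neutrophils) matched 2 clusters of resolution 2 by their counts. One, named adventitial fibroblast, held 53, 51, 45 and 31 cells, and the other, named alveolar fibroblast, 84, 0, 68 and 5. Their mix thus differed between libraries, and its part in the ratios of adventitial fibroblasts was not tested. One endothelial cluster of 342 cells carried all 8 venous markers as well as arterial ones and is called venous- or arterial-like. Interstitial macrophages numbered 87, 60, 81 and 68 (libraries ordered as for neutrophils) and dendritic cells 33, 41, 49 and 34. At resolution 2, an interstitial macrophage cluster held 51, 32, 49 and 44 cells and a second dendritic cluster (Cd209a, Ccr7) 36, 27, 32 and 24. By these counts the interstitial macrophages below included dendritic cells, whose part in their levels was not tested. The T cell type numbered 31, 38, 73 and 59 cells in the same order. At resolution 2, T cells were 6, 9, 40 and 41 and type 2 innate lymphoid cells 25, 29, 33 and 18. By these counts the T cell type below held both, in a mix that differed between the ages. No cluster was named platelet, erythroid or club cell.

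**Figure D1:**
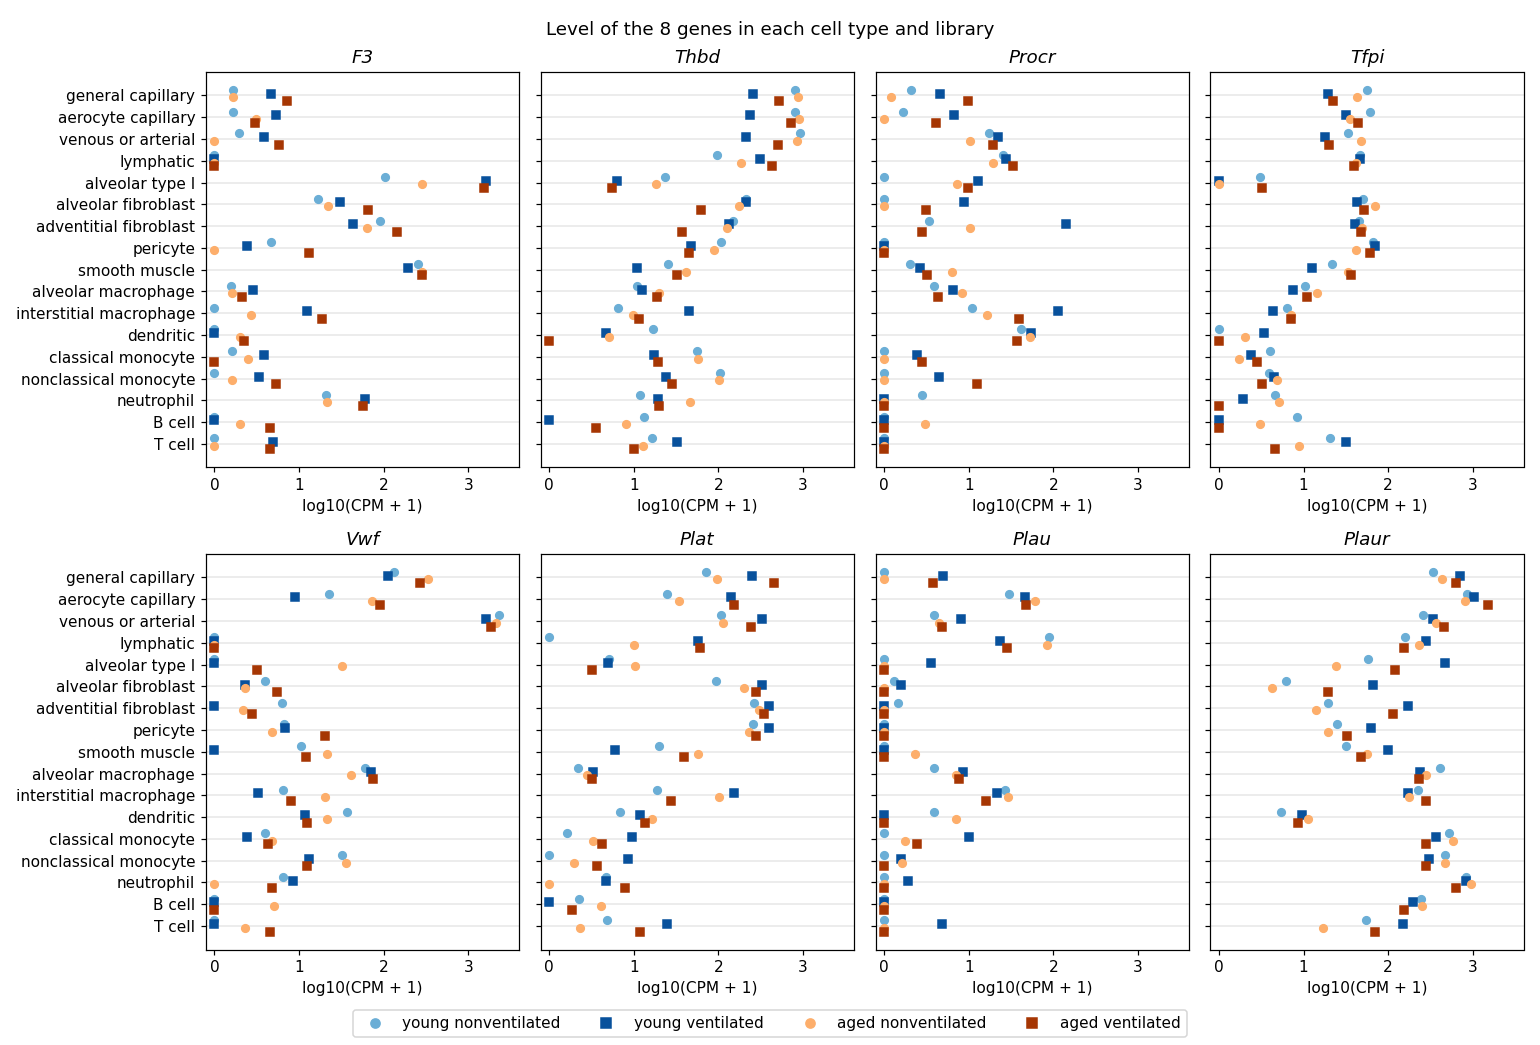
Level of each of the 8 genes as log10(CPM + 1) on the horizontal axis in the 17 cell types compared (rows), with 1 point per library (circles, nonventilated; squares, ventilated; blue, young; orange and brown, aged). Vwf stood highest in venous or arterial cells, at 1604 to 2315 CPM, and F3 in alveolar type I cells of the ventilated libraries, at 1549 and 1627 CPM.

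The 8 genes divided among the endothelium, epithelium, mesenchyme and myeloid cells. In the kept cells, alveolar type I cells made up 4.06% of all cells and held 48.3% of the F3 UMIs, while the venous- or arterial-like cells made up 3.37% of cells and held 60.6% of the Vwf UMIs. General capillary cells (23.7% of cells) held 50.4% of the Thbd, 31.4% of the Plaur, 31.0% of the Plat and 25.0% of the Tfpi UMIs. Procr and Plau were scarce, with 789 and 493 UMIs in all kept cells, against 30432 for Plaur and 21514 for Thbd. A type was compared for a gene where at least 1 of the 2 libraries held 20 UMIs, and a pair of a gene and a cell type was counted where its CPM ratio, with 1 UMI added to each sum, was at least 2-fold.

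In young mice, 63 of the 136 pairs could be compared between the ventilated and nonventilated libraries. Of these, 21 (33.3%) were at least 2-fold higher and 13 (20.6%) at least 2-fold lower in the ventilated library. Among all genes the same limits were passed upward by 8.96% and downward by 15% of the 115524 pairs of a gene and a cell type. In aged mice, 17 of 64 pairs (26.6%) were higher and 11 (17.2%) lower after ventilation, beside 5.87% and 10.2% of all pairs. The higher pairs in the young were 7 of Plaur, 5 of Plat, 3 each of F3 and Procr, 2 of Thbd and 1 of Plau, and the lower ones were 7 of Thbd, 3 of Vwf and 1 each of F3, Tfpi and Plau. In the aged, Thbd was lower in 5 types and higher in 1, and F3 was higher in 6 of the 7 types in which it could be compared. The 8 genes were chosen with earlier results of these libraries known, and these shares are a description.

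F3 encodes tissue factor, the initiator of coagulation. F3 UMIs were 65.6% outside the kept cells (8571 of 13059, of which 7810 in barcodes with more than 5000 genes), against 37% to 44.6% for the other 7 genes, so the levels below describe the smaller part of its UMIs. In alveolar type I cells, the flat cells that line most of the air space, its level was 102 CPM (interval 75.8 to 135) in the young nonventilated, 1627 CPM (1538 to 1721) in the young ventilated, 284 CPM (245 to 329) in the aged nonventilated and 1549 CPM (1436 to 1668) in the aged ventilated library. Both ventilated libraries stood far above both nonventilated libraries, and their intervals overlapped each other. The ventilated level was 15.9-fold higher (12 to 21.6) in young and 5.45-fold higher (4.62 to 6.45) in aged mice. The nonventilated level was 2.78-fold higher (2.03 to 3.89) in aged mice, while the ventilated levels differed by 0.952-fold (0.866 to 1.05). The log2 response was therefore smaller in the aged by 1.53 (interval of the difference -1.99 to -1.06), on counting error alone.

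The UMIs of F3 were spread over many alveolar type I cells. The cell with the most F3 UMIs held 8% to 16.4% of them, depending on the library. F3 was detected in 32.6% and 50.0% of the nonventilated young and aged cells and in 53.4% and 57.3% of the ventilated ones, beside 0% to 4.40% of B cells. After each cell was thinned to 1000 UMIs and shallower cells were left out (21 to 50 per library), these shares were 10.8% and 17.1% against 43.8% and 40.4%, and 0% in B cells, whose median depth was 8720 UMIs before thinning.

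Alveolar type I cells comprised a deep cluster of 116 cells (median 14432.5 UMIs) and a shallow cluster of 296 cells (median 1199.5 UMIs). The deep cluster had 27 and 36 cells in the young nonventilated and ventilated libraries and 34 and 19 in the aged ones. The last is under the minimum of 20 cells used for types. In the deep cluster, F3 was at 106 CPM in the young nonventilated, 2071 CPM in the young ventilated, 211 CPM in the aged nonventilated and 1910 CPM in the aged ventilated library, a 19.6-fold (14.3 to 27.6) and a 9.04-fold (7.31 to 11.3) difference with ventilation. In the shallow cluster it was at 90.3, 741, 504 and 860 CPM in the same order. The shallow cluster also carried markers of club cells, the secretory cells of the airway. The summed level of 6 such markers there was 1752, 12053, 58656 and 10180 CPM, whereas in the deep cluster it was 52.8 to 142 CPM. The difference with ventilation was thus at least as large in the cells nearly free of club cell RNA, while the aged-over-young difference among nonventilated cells was 2.00-fold (1.38 to 2.96) there and 5.58-fold (2.88 to 12.1) in the shallow cluster.

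Alveolar type II cells, which make surfactant and had 11 to 25 cells per library, showed F3 at 48.2 and 44.6 CPM in the young and aged nonventilated and at 248 and 176 CPM in the ventilated libraries. Ciliated airway cells (17 in all, none in the young nonventilated library) had 405 to 773 CPM. The few cells give these values little weight, but in alveolar type II cells the intervals of the ventilated libraries (203 to 299 and 128 to 236 CPM) lay above those of the nonventilated ones (25.6 to 82.4 and 26.0 to 71.4 CPM).

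Outside the epithelium, smooth muscle had F3 at 255, 195, 280 and 284 CPM (young nonventilated, young ventilated, aged nonventilated, aged ventilated), with no pair of these libraries 2-fold apart. Adventitial fibroblasts, which surround vessels and airways, had 88.6, 42.9, 62.7 and 142 CPM, lower with ventilation in the young and higher in the aged. In the aged ventilated library 1 cell held 34.2% of these UMIs, and with single cells typed by marker score the aged log2 ratio was -0.41. Alveolar fibroblasts had 15.8, 29.4, 21.1 and 65.2 CPM, a 1.86-fold (1.37 to 2.56) higher level with ventilation in the young and a 3.10-fold (2.34 to 4.15) higher level in the aged. Neutrophils had 19.9 and 20.5 CPM in the nonventilated and 59.0 and 56.4 CPM in the ventilated libraries, with F3 found in 5.08% to 5.74% and 16.8% to 17.1% of cells. The median of all genes in neutrophils was itself shifted by -0.23 (young) and -0.24 (aged) on the log2 scale between these libraries. In general capillary cells F3 was at most 6.19 CPM, and in lymphatic endothelium it was not detected.

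Thbd encodes thrombomodulin, the thrombin receptor of the endothelial surface. In general capillary cells it was at 811 CPM (785 to 837) in the young nonventilated, 256 CPM (243 to 270) in the young ventilated, 864 CPM (837 to 891) in the aged nonventilated and 521 CPM (498 to 546) in the aged ventilated library. In aerocytes, the capillary cells of gas exchange, it was at 804, 236, 895 and 715 CPM, and in venous- or arterial-like cells at 918, 213, 858 and 507 CPM. In all 3 types the nonventilated libraries were high, the young ventilated library was the lowest and the aged ventilated library lay between.

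**Figure D2:**
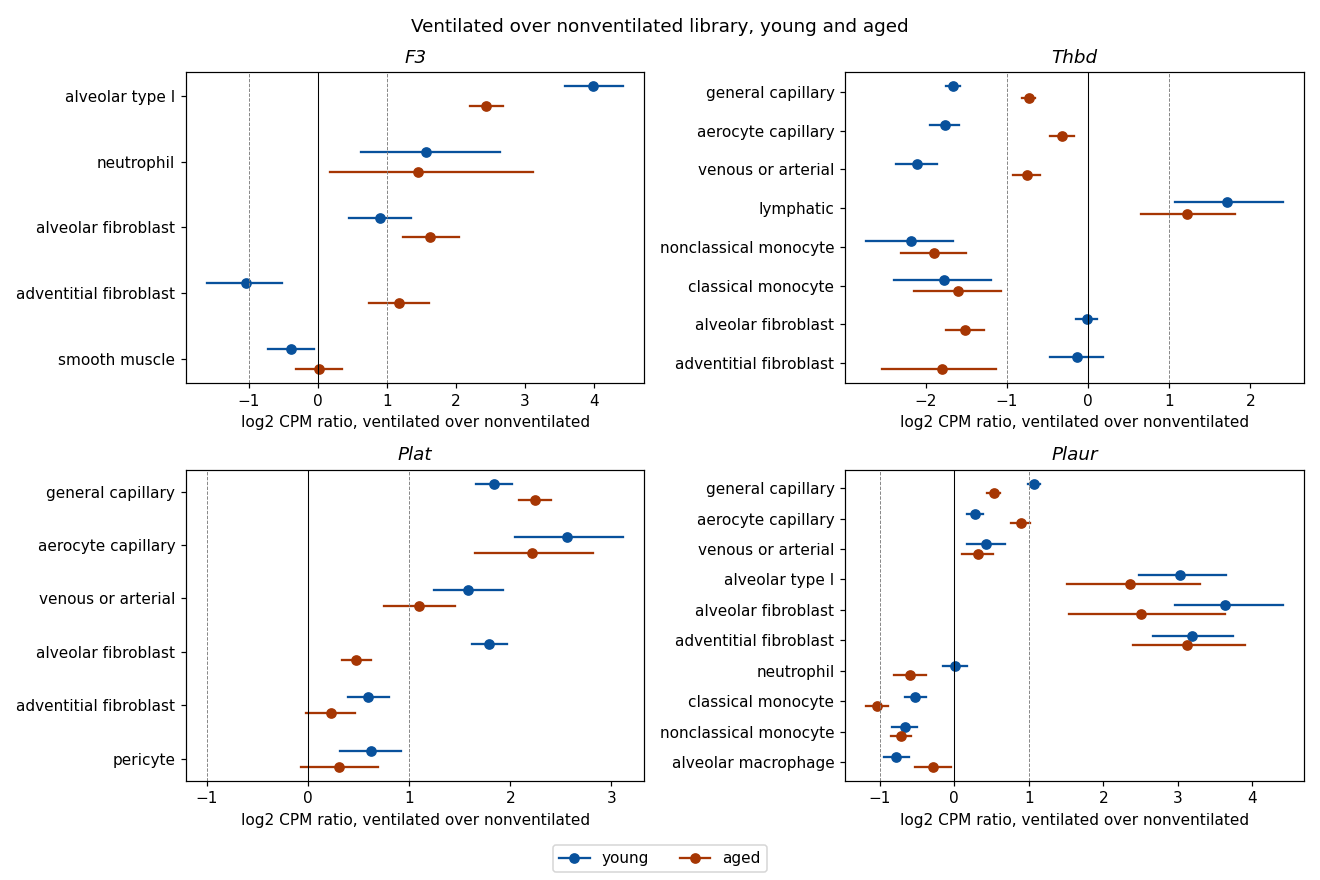
Log2 CPM ratio of the ventilated over the nonventilated library (horizontal axis) in young (blue) and aged (brown) mice for F3, Thbd, Plat and Plaur in the cell types listed. Points are ratios without added UMIs, lines their 95% counting intervals and dashed lines 2-fold. The Thbd points of the 3 blood endothelial types lie farther to the left in young than in aged mice, while those of F3 in alveolar type I cells and Plat in capillary cells lie to the right of 2-fold at both ages.

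With ventilation, Thbd was 3.17-fold lower (2.98 to 3.37) in young general capillary cells and 1.66-fold lower (1.57 to 1.75) in aged ones. The corresponding figures were 3.41-fold (3.02 to 3.86) and 1.25-fold (1.13 to 1.39) in aerocytes, and 4.32-fold (3.63 to 5.17) and 1.69-fold (1.51 to 1.89) in venous- or arterial-like cells. The log2 difference between the ages in these responses was 0.93 (0.81 to 1.05), 1.44 (1.22 to 1.67) and 1.35 (1.05 to 1.64). Among nonventilated libraries, aged and young levels were within 1.11-fold of each other in all 3 types, whereas among ventilated libraries the aged level was 2.04-fold, 3.03-fold and 2.39-fold the young level in general capillary cells, aerocytes and venous- or arterial-like cells. In general capillary cells, Thbd was detected in 87.9%, 58.7%, 90.9% and 79.8% of cells, and after thinning in 51.5%, 20.9%, 48.7% and 36.3%, beside 0% to 2% of B cells.

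Lymphatic endothelium, which drains tissue fluid and had 20 to 31 cells per library, differed in the other direction. Its Thbd level was 95.4 CPM in the young nonventilated, 313 CPM in the young ventilated, 183 CPM in the aged nonventilated and 425 CPM in the aged ventilated library. The ventilated level was 3.28-fold higher (2.10 to 5.26) in the young and 2.32-fold higher (1.57 to 3.49) in the aged, from 27 to 83 UMIs per library.

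Monocytes had less Thbd, and it was lower with ventilation at both ages. Nonclassical monocytes, which patrol the vessel wall, had 103 and 101 CPM in the nonventilated against 22.7 and 27.3 CPM in the ventilated libraries, and classical monocytes 55.4 and 56.1 against 16.1 and 18.4 CPM. These were 4.55-fold and 3.72-fold lower levels in nonclassical and 3.43-fold and 3.05-fold lower levels in classical monocytes of young and aged mice. In alveolar fibroblasts, Thbd was 211 and 209 CPM in the young libraries but 173 and 60.4 CPM in the aged ones, a 2.86-fold lower level (2.44 to 3.36) with ventilation in the aged and 1.01-fold (0.923 to 1.11) in the young. Adventitial fibroblasts had the same order, at 146 and 132 CPM in the young and 125 and 36.1 CPM in the aged, although 1 cell held 51.9% of the UMIs in the young ventilated library. Pericytes had 106 and 87.8 CPM in the nonventilated against 46.5 and 43.5 CPM in the ventilated libraries. Interstitial macrophages were an exception in the young ventilated library alone, with 44.1 CPM beside 5.42 to 10.5 CPM in the other 3.

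Procr, the protein C receptor, is a classical endothelial gene, yet its level in blood endothelium was low. Venous- or arterial-like cells had 16.5, 21.4, 9.22 and 18.2 CPM, and general capillary cells 1.09 and 0.222 CPM in the nonventilated and 3.53 and 8.72 CPM in the ventilated libraries. Dendritic cells had the highest mean, at 40.7, 53.4, 51.4 and 36.6 CPM, with intervals that overlapped across libraries. A single cell held 22% to 50% of these UMIs, depending on the library. Without the cell with the most Procr UMIs, interstitial macrophages were highest, and after thinning adventitial fibroblasts were. In interstitial macrophages it was at 10.1, 114, 15.6 and 38.4 CPM, 11.3-fold higher (6.34 to 22.0) with ventilation in the young and 2.46-fold higher (1.39 to 4.52) in the aged. Adventitial fibroblasts of the young ventilated library had 139 CPM against 1.80 to 9.46 CPM in the other 3 libraries, but these 113 UMIs came from 7 of 51 cells. In alveolar fibroblasts Procr was 0 in both nonventilated libraries and 54 UMIs in the young ventilated library, at least 9-fold higher than the 3 counts that a count of 0 allows, and in nonclassical monocytes 0 against 26 UMIs in the aged ventilated library, at least 12.1-fold higher.

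Tfpi, the inhibitor of the tissue factor complex, was spread over mesenchyme and endothelium. Pericytes, which wrap capillaries, had 65.0, 68.3, 41.1 and 60.4 CPM, alveolar fibroblasts 49.4, 41.8, 69.7 and 51.3 CPM and adventitial fibroblasts 44.3, 39.3, 48.5 and 46.9 CPM. No pair of libraries was 2-fold apart in these types. General capillary cells had 55.8 and 41.5 CPM in the young and aged nonventilated and 18.6 and 21.1 CPM in the ventilated libraries. This was a 3.00-fold lower level (2.38 to 3.83) in the young and a 1.97-fold lower level (1.50 to 2.61) in the aged. In aerocytes Tfpi was at 60.6, 30.7, 34.1 and 43.2 CPM, and the ventilated library was lower in the young and higher in the aged, by less than 2-fold each. Venous- or arterial-like cells had 32.9, 17.1, 46.1 and 19.1 CPM, 2.41-fold lower (1.38 to 4.35) with ventilation in the aged.

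Vwf passed 2-fold with ventilation in 3 types at each age, lower in each, and with age in 4 nonventilated and 2 ventilated types, higher in the aged in each. The 2 ventilated types were general capillary cells and aerocytes. The 4 nonventilated types were these 2, alveolar type I cells (20 UMIs in the aged against 0) and interstitial macrophages (22 against 7), the last 2 on few UMIs. Venous- or arterial-like cells had 2315 CPM (2223 to 2410) in the young nonventilated, 1604 CPM (1511 to 1700) in the young ventilated, 2122 CPM (2026 to 2221) in the aged nonventilated and 1876 CPM (1793 to 1961) in the aged ventilated library, all within 1.44-fold. General capillary cells had 133 CPM (123 to 144) and 113 CPM (104 to 122) in the young against 335 CPM (319 to 353) and 270 CPM (253 to 288) in the aged libraries. In these capillary cells both aged libraries lay above both young ones, by 2.52-fold (2.29 to 2.78) without and 2.39-fold (2.16 to 2.65) with ventilation, whereas the ventilated level was at most 1.24-fold below the nonventilated one at either age. Aerocytes showed 21.5 and 7.86 CPM in the young and 72.5 and 89.5 CPM in the aged, although 1 cell held 27.3% to 42.6% of the UMIs in each library and 7 to 15 cells had any. Nonclassical monocytes had 31.0 and 34.8 CPM in the nonventilated and 12.2 and 11.4 CPM in the ventilated libraries. The other types with lower Vwf after ventilation were aerocytes and dendritic cells in the young, and interstitial macrophages and alveolar type I cells in the aged, the last with 20 UMIs against 1.

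**Figure D3:**
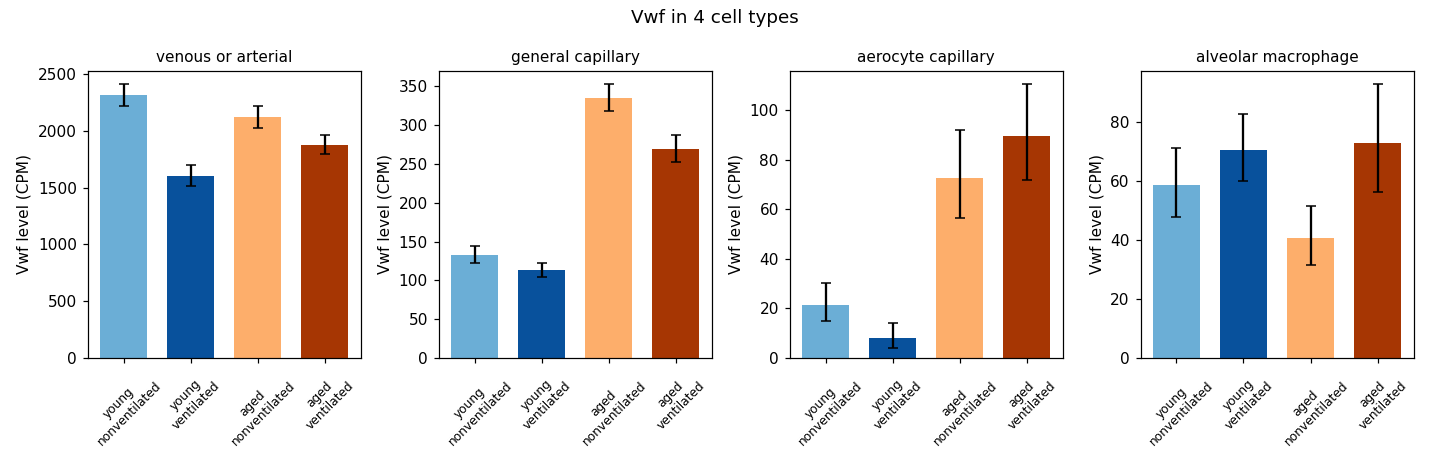
Vwf level in CPM (vertical axis, from 0, with its own scale in each panel) in 4 cell types, with 1 bar per library and 95% counting intervals. In general capillary cells both aged libraries (335 and 270 CPM) stand above both young ones (133 and 113 CPM), while the venous or arterial cells show 1604 to 2315 CPM without that order.

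The share of general capillary cells with a Vwf UMI was 32.2% and 24.6% in the young and 57.7% and 50.6% in the aged libraries, and 11.5%, 7.16%, 21.8% and 18.0% (young nonventilated, young ventilated, aged nonventilated, aged ventilated) after thinning to 1000 UMIs. No B cell had a Vwf UMI after thinning. The 8 venous markers summed to 286 and 255 CPM in the young and to 206 and 195 CPM in the aged general capillary cells, and the 8 arterial markers to 1288 and 518 against 1428 and 773 CPM. The part of venous or arterial cells in the Vwf difference was not tested beyond these values. Vwf was 0 in lymphatic endothelium in all 4 libraries. Alveolar macrophages, the phagocytes of the air space, had 58.7, 70.8, 40.7 and 73.0 CPM, with a UMI in 32.7% to 58.3% of cells at a median depth of 18379 UMIs. In B cells, at a median of 8720 UMIs, it was found in 0% to 4%.

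Among the genes of fibrinolysis, Plat, the tissue-type plasminogen activator, was higher with ventilation in blood endothelium at both ages. In general capillary cells it was at 69.4 CPM (62.0 to 77.4) in the young nonventilated, 248.5 CPM (235 to 262) in the young ventilated, 94.5 CPM (85.7 to 104) in the aged nonventilated and 447 CPM (425 to 470) in the aged ventilated library. In aerocytes it was at 23.5, 139, 33.1 and 153 CPM. Venous- or arterial-like cells had 108, 322, 112 and 239 CPM. Both ventilated libraries lay above both nonventilated ones in each of the 3 types. The ratio was 3.58-fold (3.17 to 4.06) and 4.73-fold (4.25 to 5.28) in general capillary cells and 5.91-fold (4.13 to 8.69) and 4.64-fold (3.13 to 7.07) in aerocytes of young and aged mice, and 3.00-fold (2.38 to 3.80) and 2.14-fold (1.69 to 2.73) in venous- or arterial-like cells. Plat was detected in 25.1%, 41.0%, 33.2% and 50.3% of general capillary cells, and in 6.72%, 16.1%, 8.46% and 23.2% after thinning, beside 0% of B cells.

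The mesenchyme carried as much Plat. Adventitial fibroblasts had 264, 400, 297 and 348 CPM and pericytes 258, 397, 226 and 280 CPM, without a 2-fold difference. Alveolar fibroblasts had 93, 322, 199 and 278 CPM, 3.46-fold higher (3.08 to 3.91) with ventilation in the young and 1.39-fold higher (1.26 to 1.54) in the aged, but 1 cell held 24.9% of the aged nonventilated UMIs. Smooth muscle had at most 56.5 CPM. The values in interstitial macrophages (17.8, 150, 102 and 26.2 CPM) rested on few cells. A single cell held 49.6% of the UMIs in both the young ventilated and the aged nonventilated library.

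Plau, the urokinase gene, was measurable in few types. Lymphatic endothelium had 88.3 and 82.4 CPM in the young and aged nonventilated and 22.6 and 27.3 CPM in the ventilated libraries, from 5 to 25 UMIs each, and the ratio was 3.91-fold lower (1.57 to 11.6) in the young and 3.02-fold lower (1.08 to 10.4) in the aged, whose 18 and 5 UMIs were under the minimum for a counted pair. Plau in general capillary cells was 0 in both nonventilated libraries and 21 and 10 UMIs in the young and aged ventilated ones, at least 5.96-fold higher in the young. Aerocytes had 28.7, 45.8, 59.7 and 46.3 CPM, and interstitial macrophages 25.6, 20.3, 27.8 and 14.9 CPM. Only the aged-over-young ratio in nonventilated aerocytes (2.08-fold, 1.38 to 3.17) passed 2-fold in these last 2 types.

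Plaur, the urokinase receptor, was found in endothelium and myeloid cells alike. Aerocytes had the highest mean, at 866, 1046, 808 and 1500 CPM, followed by neutrophils at 821, 827, 952 and 632 CPM, and their ranges overlapped. General capillary cells had 338, 710, 433 and 625 CPM, 2.10-fold higher (1.98 to 2.23) with ventilation in the young and 1.44-fold higher (1.36 to 1.54) in the aged. The order was reversed in aerocytes, in which the ratio was 1.21-fold (1.12 to 1.30) in the young and 1.86-fold (1.70 to 2.03) in the aged.

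Cell types with little Plaur at baseline showed the largest ratios. Alveolar type I cells had 57.2, 468, 23.3 and 120 CPM, that is 8.18-fold (5.56 to 12.5) and 5.15-fold (2.86 to 9.82) higher with ventilation in young and aged mice. Alveolar fibroblasts had 5.26, 65.6, 3.29 and 18.7 CPM and adventitial fibroblasts 18.6, 169, 13 and 114 CPM. In both fibroblast types the 2 ventilated libraries were above the 2 nonventilated ones, by 12.5-fold and 5.69-fold in alveolar and by 9.12-fold and 8.73-fold in adventitial fibroblasts of young and aged mice. The levels of both fibroblast types lay below those of B cells, at 246, 194, 250 and 153 CPM. Those of alveolar type I cells also did, except in the young ventilated library. When the level in B and T cells of each library was subtracted, no Plaur was left in alveolar fibroblasts, so no ratio could be given there. This followed from the higher level in the subtracted cells, and it does not bear on the fibroblast ratios above. Pericytes (24.1, 61.0, 18.7 and 31.4 CPM) and smooth muscle (30.4, 99.9, 55.2 and 46.5 CPM) were over 2-fold higher with ventilation in the young library alone. Both also lay below the B cell level in every library. Monocytes and alveolar macrophages had the opposite order. Nonclassical monocytes had 475 and 464 CPM in the nonventilated and 299.7 and 283 CPM in the ventilated libraries, classical monocytes 530 and 581 against 369 and 283 CPM, and alveolar macrophages 404 and 282 against 236 and 231 CPM.

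Comparing the ages among nonventilated libraries, 9 of the 56 pairs that could be compared were at least 2-fold higher and 1 at least 2-fold lower in the aged, against 3.28% and 2.32% of all pairs of a gene and a cell type. The 9 were 4 of Vwf, 3 of Plat and 1 each of F3 and Plau, and the lower pair was Plaur in alveolar type I cells. Among the ventilated libraries, 9 of 61 pairs were higher and 11 lower in the aged (4.49% and 4.34% of all pairs). The higher ones included Thbd in the 3 blood endothelial types and Vwf in both capillary types, and the lower ones Thbd in both fibroblast types and Plaur in alveolar type I cells, alveolar fibroblasts, smooth muscle and T cells. The mix of T and innate lymphoid cells in the T cell type differed between the ages, and its part in that ratio was not tested. The comparisons share libraries, and a low or high value of 1 library enters 2 of them.

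A finer clustering (resolution 2 in place of 1) separated the venous- or arterial-like cells into a venous-like group of 238 cells and an arterial-like group of 77 cells, the latter with 10 to 25 cells per library. The genes divided between them. Plat was at 470, 1108, 455 and 1289 CPM in the arterial-like and 5.81, 127, 21.0 and 83.6 CPM in the venous-like cells (young nonventilated, young ventilated, aged nonventilated, aged ventilated), 13.5-fold (11.2 to 16.3) higher in the arterial-like cells over the 4 libraries together. Thbd showed the opposite, with 133, 37.7, 177 and 71.6 CPM in arterial-like and 1104, 242, 1093 and 573 CPM in venous-like cells, 6.80-fold (5.37 to 8.75) higher in the latter. Vwf was 1.56-fold (1.46 to 1.67) and Plaur 1.44-fold (1.23 to 1.71) higher in the venous-like cells over the 4 libraries together, Vwf in all 4 libraries and Plaur in all but the aged nonventilated one. With ventilation, Thbd was lower and Plat higher in each of the 2 groups at both ages. The arterial-like cells numbered 24, 18, 25 and 10 in the 4 libraries, and the venous-like cells 61, 42, 62 and 73. The mix thus differed between libraries, and its part in the ratios of the venous- or arterial-like cells above was not tested.

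**Figure D4:**
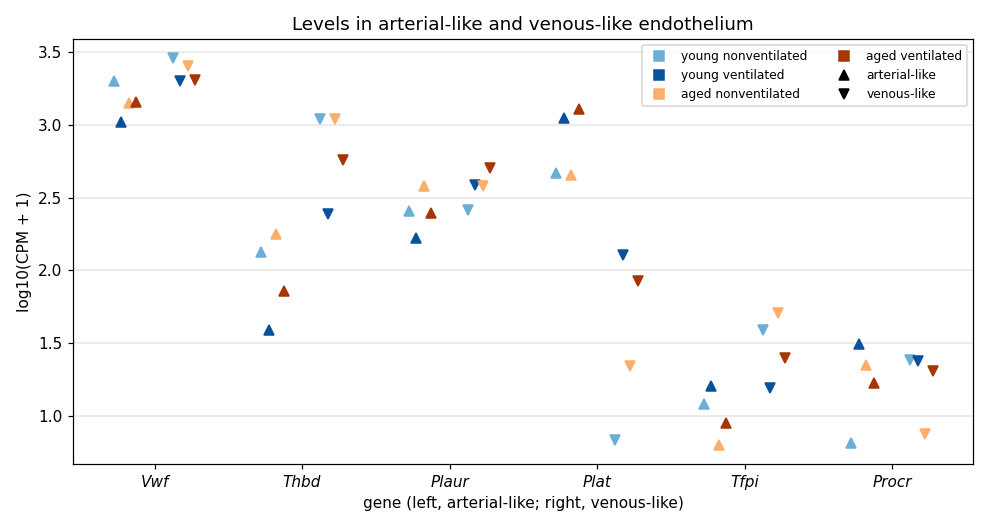
Levels of 6 genes as log10(CPM + 1) (vertical axis) in arterial-like (upward triangles, 77 cells) and venous-like (downward triangles, 238 cells) endothelium of the finer clustering, with 1 symbol per library. Plat is higher in arterial-like cells and Thbd in venous-like cells in all 4 libraries.

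The rest of the pathway was represented by 35 further genes in 4 lists. Of the 125 pairs of these genes and a cell type that could be compared in the young, 31 were at least 2-fold higher and 15 lower with ventilation, and in the aged 17 of 124 were higher and 17 lower. Over all genes, 8.96% of pairs were higher and 15% lower in the young, and 5.87% and 10.2% in the aged, which is also the background for each list below. The median log2 ratio was 0.14 in the young and 0.01 in the aged. Among 11 other genes of the plasminogen system, 8 could be measured, with 21 pairs higher and 6 lower in the young and 11 higher and 10 lower in the aged. S100a10, which with Anxa2 forms a cell surface binding site for Plat and plasminogen, was 8.89-fold (7.65 to 10.4) and 3.78-fold (3.18 to 4.50) higher in aerocytes of young and aged mice.

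Of 13 procoagulant genes, 5 could be measured, with 5 pairs higher and 6 lower in the young and 6 higher and 7 lower in the aged. F10, the factor X gene, was at 132, 676, 187 and 851 CPM (young without and with ventilation, aged without and with ventilation) in classical monocytes and at 56.0, 531, 207 and 836 CPM in nonclassical monocytes. F10 was lower with ventilation in general capillary cells, at 27.1, 8.36, 45.7 and 11.5 CPM. F13a1, which encodes the subunit of factor XIII that crosslinks fibrin, was at 828, 1742, 648 and 2199 CPM in classical monocytes. F5, the factor V gene, had the opposite order, at 129, 31.8, 238 and 42.6 CPM in classical monocytes and 495, 264, 845 and 261 CPM in neutrophils. F7, whose product binds tissue factor, was at 219, 290, 174 and 189 CPM in alveolar macrophages, and F8, whose product Vwf carries, at 212, 102, 394 and 131 CPM in lymphatic endothelium, in which Vwf was not detected. No UMI of the fibrinogen genes Fga, Fgb and Fgg or of plasminogen (Plg) was found in the compared cell types. Among the thrombin and protease receptors, 3 pairs of 11 were higher in the young and none of 11 in the aged passed 2-fold. All 3 were F2r, the thrombin receptor, in blood endothelium, for example at 16.8, 40.1, 22.2 and 33.7 CPM in general capillary cells. Of the other anticoagulants, 2 of 17 pairs were higher and 3 lower in the young and none of 16 in the aged. The 3 lower pairs were Pros1, which encodes protein S, in monocytes and adventitial fibroblasts.

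Over the 68 sums of a cell type and a library, the genes whose log2(CPM + 10) followed F3 most closely among 9478 genes were Col4a5, Fstl3 and Gipc2 (Pearson's r of 0.88, 0.87 and 0.85). Those nearest to Thbd were Fmo1, Ramp2 and Fzd4 (0.87, 0.87 and 0.87), to Vwf Tmem252, Fam107a and Ano2 (0.86, 0.84 and 0.83), and to Tfpi A4galt, Sept4 and Zcchc14 (0.91, 0.89 and 0.89). For Plat they were Lix1l, Spry4 and Hdx (0.86, 0.85 and 0.84), for Plaur Tbk1, Irf2 and Slc25a37 (0.79, 0.76 and 0.75), for Plau Stab1, Ednrb and Rspo3 (0.81, 0.71 and 0.71) and for Procr Anpep, Ccl17 and Tmem39a (0.71, 0.65 and 0.65). Within the 8 genes, the closest pairs were Tfpi and Plat (0.72) and Thbd and Tfpi (0.71). Sums of a library share its depth and its free RNA, and these values are descriptions.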

How the data were processed

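The authors aligned 3′ droplet reads to mm10 and made the deposited UMI count matrices (whole-number counts per gene and barcode, not normalized) with Cell Ranger 7.0.0, per the labels and the file headers, and cells of 3 mice were pooled before each library. The study's limits on genes, mitochondrial share and UMIs were applied to the barcodes. Cells of the 4 libraries were then merged without integration, normalized to 1000000 per cell, and clustered at resolution 1 from 2000 variable genes and 37 principal components with Seurat 5.3.0 in R 4.3.3. Resolution 1 was used in place of the study's 0.18, at which venous cells were not a separate type among those compared. The 8 genes and 35 pathway genes were kept out of the variable genes. Doublets were limited only by the upper bounds on genes and UMIs. A cluster took the name with the highest score among marker lists if at least 3 of its markers were detected in 20% of its cells, and the rule for names was settled after the clusters had been seen.

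UMIs were summed per library and cell type and divided by the total of the sum. Intervals are exact Poisson for a level and exact conditional binomial for a ratio, at 95%, computed with Python 3.11.15 and scipy 1.17.1. Those for a difference between log2 responses are approximate (Wald, 1.96 standard errors on either side). All cover counting error only. The ratio intervals were tested on simulated counts drawn with the counting error that they assume. UMIs gathered in few cells were thus not covered. A ratio was counted at 2-fold with 1 UMI added to each sum and at least 20 UMIs in 1 of the 2 libraries. The genes named are the 8, those of the pathway lists, and for each of the 8 the 3 genes nearest by Pearson's r among those reaching 50 CPM in any sum. Values of 1 gene of the pathway lists are not reported here. The 8 genes, the lists and the motifs were chosen with earlier results of these data known. Promoters are RefSeq sequences of GRCm38.p6, and gene positions come from the GRCm38 annotation.

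Alternatives were other resolutions, typing of single cells by marker score, other limits on UMIs and mitochondrial share, thinning, other scalings and filters, subtraction of the level in B and T cells, and leaving out cells with UMIs of another lineage. Leaving out the cell with the most UMIs of a gene, and leaving out shallow clusters, were added after the data had been seen.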

Additional observations from a re-analysis of the deposited data

Results flagged for a closer look

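F3 in adventitial fibroblasts was singled out because the ventilated library was lower in young mice (88.6 against 42.9 CPM) and higher in aged mice (62.7 against 142 CPM), opposite directions at the 2 ages. The log2 responses differed by 2.20 (aged minus young). The difference was not tested, since each group is 1 library, and 1 cell held 34.2% of the aged ventilated UMIs. With single cells typed by their marker score, the aged log2 ratio was -0.41.

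Plat in interstitial macrophages also took opposite directions, with a difference in log2 response of -4.95 that was not tested. The young libraries had 17.8 and 150 CPM and the aged libraries 102 and 26.2 CPM, and 1 cell held 30.0% to 49.6% of the UMIs in each. Plaur in interstitial macrophages (225 and 173 CPM in the young, 174 and 278 CPM in the aged) showed the reverse pattern, with a difference of 1.05 that was likewise not tested.

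F3 was also present in barcodes that no comparison used. Of its UMIs, 65.6% lay in barcodes outside the limits on genes, UMIs or mitochondrial share, where its level was 35.4, 202, 46.6 and 206 CPM (young without and with ventilation, then aged without and with ventilation), against 24.0, 68.0, 26.1 and 60.1 CPM in kept cells. In alveolar type II and ciliated cells, which were too few to be compared, the mean F3 level over the libraries with such cells was 129 and 557 CPM.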

How the results depend on the processing

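Of the 92 ratios past 2-fold over the 4 comparisons, 46 stayed past 2-fold in the same direction under every alternative that gave a value. Another 16 were counted as reversed under at least 1 of the 17 alternatives, 2 of which were chosen after seeing the data. Of these 16, 5 were counted only because subtraction of the B and T cell level left nothing in either library. The log2 ratio of F3 in alveolar type I cells was 2.83 to 4.10 in the young and 1.69 to 3.01 in the aged, with no value at resolutions 0.18 and 0.5, at 5% mitochondrial UMIs and without shallow clusters, where alveolar type I cells were not a compared type. That of Thbd in young general capillary cells was -1.76 to -1.60. The aged-over-young log2 ratio of Vwf in nonventilated general capillary cells was 0.22 at resolution 0.18, where veins joined this type, and otherwise up to 1.39. No library could be left out, since each group had 1. No paired analysis was possible because the groups share only the replicate number 1.

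Counts past 2-fold moved as follows, and apart from the alternatives with fewer types, UMIs or looser limits by construction, the cause was not tested. The counts with subtraction can include pairs in which nothing was left in either library and the ratio came from UMI totals alone. Higher with ventilation in the young (21) became 12 at resolution 0.18 and 7 after thinning. Lower in the young (13) became 6 at resolution 0.18, 5 after thinning, 21 with the B and T cell level subtracted and 7 with a mean of 50 CPM required. Higher in the aged (17) became 11 at resolutions 0.18 and 2, 9 with a mitochondrial limit of 5%, 3 after thinning and 8 at 50 CPM. Lower in the aged (11) became 6 at resolution 0.18, 5 after thinning, 6 at 50 CPM and 20 at 1.5-fold. Aged over young without ventilation, higher (9) became 3 at resolution 0.18, 4 with cells typed singly, 5 at 5% mitochondrial UMIs, 2 after thinning, 18 with subtraction, 4 at 50 CPM, 14 at 1.5-fold and 5 without the top cell. Lower (1) became 0 at resolution 0.5, after thinning, at 50 CPM and without shallow clusters, 2 at resolution 2, with the 8 genes allowed as variable genes and with no UMI limit, 3 with cells typed singly, and 4 at 1.5-fold and with the UMI percentile taken after the other limits. With ventilation, higher in the aged (9) became 5 after thinning, 17 with subtraction and 5 at 50 CPM, and lower (11) became 4 at resolution 0.18 and after thinning. The cell type with the highest level was the same for 3 of the 8 genes at resolution 0.18 and for 5 with the UMI percentile taken after the other limits.

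Log2 ratios that reversed were those of Plaur in T cells after thinning (-1.26 with ventilation in the young, 1.65 aged over young with ventilation) and of F3 in aged adventitial fibroblasts with cells typed singly (-0.41). Plaur with subtraction was also counted in alveolar fibroblasts (-1.0001 young, -0.30 aged, 0.87 aged over young with ventilation), pericytes (-0.35) and smooth muscle (0.41). In these cases no Plaur was left in either library, and the values came from UMI totals alone. Plat in interstitial macrophages reversed with ventilation in the aged at resolution 2 (0.022), with the percentile taken later (1.28) and at 5% mitochondrial UMIs (1.35), aged over young without ventilation with the percentile taken later (-0.27), and aged over young with ventilation at resolution 2 (0.40), with the 8 genes allowed (0.43) and at 5% mitochondrial UMIs (0.064). The others were Procr in general capillary cells at resolution 2 (-0.70), Vwf in interstitial macrophages at 5% mitochondrial UMIs (0.026) and in nonclassical monocytes after thinning (0.11), Thbd in smooth muscle with cells typed singly (2.00) and after thinning (0.23), and Plat in smooth muscle with cells typed singly (-0.093).

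Depth limited Procr and Plau most, with 789 and 493 UMIs in all kept cells.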

Other observations

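Serpine2, which encodes a protease inhibitor of thrombin and the plasminogen activators, was at 188 and 233 CPM in adventitial fibroblasts of the young and aged nonventilated libraries and at 44.2 and 70.3 CPM in the ventilated ones, 4.26-fold and 3.31-fold lower. S100a10 in alveolar type I cells was at 85.8, 706, 127 and 251 CPM (young nonventilated, young ventilated, aged nonventilated, aged ventilated). Cells with at least 3 UMIs of general markers of another lineage were 8.03% to 16% of the kept cells of a library.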
